A study of Mus musculus with 5 samples.

Results

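The genes described here are interferon-stimulated genes, the transcripts that cells raise when an interferon binds its receptor. They were given as 35 symbols, of which 33 are rows of an expression table of 11643 genes measured by RNA-seq in sorted mouse haematopoietic stem cells (HSCs). Gbp3 and Ifi27l2a were not analysed here. The study set 2 libraries labelled Tle1/3/4-deficient (replicates 1 and 2) against 3 control libraries (replicates 1, 2 and 3) to learn how loss of the TLE co-repressors changes gene expression in HSCs. All came from bone marrow of C57BL/6 mice, sorted for c-Kit, Sca-1 and CD150 and against lineage markers and CD48. In the deficient-labelled mice Tle1, Tle3 and Tle4 were all floxed and Vav-Cre, which acts in every blood lineage, was used to delete them. The labels call the other mice only control, so whether they carried floxed alleles or Cre is not given in the sources used here. Because Vav-Cre acts in mature blood cells as well as in HSCs, an effect that starts in the HSCs and one that reaches them from other blood cells cannot be told apart in this model.

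Interferons of type I and type III act through JAK kinases on STAT factors, which join IRF9 to form a complex called ISGF3. That complex binds a short DNA element, the interferon-stimulated response element (ISRE), in the promoters of its targets. Type II interferon acts mainly through a different element called GAS. HSCs are known to be pushed out of dormancy by interferon, and stem cells are known to keep some of these antiviral genes on without infection.

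Promoters of 6 members are shown because they carry a run of letters like the ISRE, whose use in these cells was not tested. They are the members with an ISRE-like run whose level in deficient-labelled replicate 1 stood furthest above the control mean. Each line gives the 160 bases just before the transcription start, 5′ to 3′ on the gene's strand, from RefSeq on GRCm38.p6, a later build than the mm9 named for the expression data. The ISRE-like run searched for, on both strands, was GAAA followed after any 2 bases by a second GAAA, and capitals mark it. Where matches overlap, the capitals run on.
Ifit3 (chr19:34583369-34583528, plus strand): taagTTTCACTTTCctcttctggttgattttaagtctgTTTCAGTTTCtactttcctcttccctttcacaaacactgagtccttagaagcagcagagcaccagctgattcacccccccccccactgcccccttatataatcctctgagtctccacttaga
Ifit1 (chr19:34640729-34640888, plus strand): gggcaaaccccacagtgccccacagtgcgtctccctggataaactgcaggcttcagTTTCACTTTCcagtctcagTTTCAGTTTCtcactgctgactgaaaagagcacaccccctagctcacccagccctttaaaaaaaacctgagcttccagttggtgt
Oas3 (chr5:120777660-120777819, minus strand): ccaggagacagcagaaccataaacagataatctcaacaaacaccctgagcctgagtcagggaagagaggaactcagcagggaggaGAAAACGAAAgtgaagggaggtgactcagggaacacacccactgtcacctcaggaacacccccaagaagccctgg
Isg15 (chr4:156200819-156200978, minus strand): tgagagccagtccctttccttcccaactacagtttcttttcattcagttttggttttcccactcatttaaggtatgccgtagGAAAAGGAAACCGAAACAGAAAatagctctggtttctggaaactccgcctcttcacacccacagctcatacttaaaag
Irgm1 (chr11:48871421-48871580, minus strand): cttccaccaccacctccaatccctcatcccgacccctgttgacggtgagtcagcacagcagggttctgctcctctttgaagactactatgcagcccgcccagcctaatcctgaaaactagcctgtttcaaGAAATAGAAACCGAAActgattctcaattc
Oas1a (chr5:120907526-120907685, minus strand): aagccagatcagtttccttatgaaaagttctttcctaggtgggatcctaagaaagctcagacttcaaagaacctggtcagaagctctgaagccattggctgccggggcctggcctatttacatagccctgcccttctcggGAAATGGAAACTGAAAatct
Isg15 has 3 overlapping matches, Irgm1 and Oas1a have 2 overlapping matches each, Ifit3 and Ifit1 have 2 separate matches each on the opposite strand, and Oas3 has 1. RefSeq windows of 250 bases before to 50 after the start matched 23 of the 33 members by symbol, and 14 of these (60.9%) held the run. Among all tested genes of the table with a window, 305 of 8158 (3.74%) held it. The GAS-like run, TTC and GAA separated by any 3 bases, was found in the windows of 5 of the 23 members (21.7%), against 8.52% of the tested genes with a window. Of the members with a window, the run was held by 11 of the 18 that were above every control in deficient-labelled replicate 1, and by 3 of the other 5. No entry was held for Dhx58, Zbp1, Oas2, Mx1, Mx2, Usp18, Parp14, Rtp4, Ifi27 and Ly6e.

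Levels are given in FPKM, fragment counts that the authors scaled for transcript length and sequencing depth, in replicate order, and differences on the log2(FPKM + 1) scale, which understates the change of low genes. The libraries summed to 683822 and 599137 FPKM in the deficient-labelled group, against 616738 to 650087 FPKM in the controls. Total reads are unknown. The commonest ratio between low values put the libraries within 1.46 times of one another in depth, with few genes (8 to 36 per pair) behind each ratio. As a check on the labels, Tle3 stood higher where it should have been lost, with 32.3 and 31.6 FPKM in deficient-labelled libraries, against 2.48, 4.97 and 5.61 FPKM in the controls. Tle1 was at 2.84 and 4.37 FPKM in deficient-labelled HSCs, against 1.83, 0.811 and 3.33 FPKM in control HSCs. Tle4 measured 0.353 and 0.203 FPKM in the deficient-labelled pair, against 5.67, 0.0129 and 5.29 FPKM in the 3 controls. Only Tle4 was low in both deficient-labelled libraries, and it was as low in control replicate 2. Gene-level values can include exons outside the floxed part, so every direction given here follows the labels alone. None of 12 HSC markers was listed at 0 in any library, and their summed level was 889 and 668 FPKM in the deficient-labelled libraries, against 987 to 1048 FPKM in the controls. Fgd5 was near 0 in deficient-labelled replicate 2 (0.0401 FPKM) and low in control replicate 2 (0.184 FPKM). In deficient-labelled replicate 2, 9 of the 12 lay below every control, where 33.4% of all tested genes did. In replicate 1, 4 of the 12 did (33.3%), near the 28.6% of all tested genes. Ly6a, which encodes the Sca-1 of the gate and is itself interferon-inducible, had 155 and 14.05 FPKM in deficient-labelled libraries, against 57.8, 96.3 and 199 FPKM in control libraries. Exact values of 0 can be failed estimates in this table, so genes listed at 0 are given by library. Nothing in the labels says that replicates are separate mice, and the p-values then cover the spread of these libraries, which may be technical.

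The members were high in deficient-labelled replicate 1, and in replicate 2 more of them lay below the controls than above. In deficient-labelled replicate 1, 27 of the 33 members lay above every control, where 26.5% of all tested genes did, and 1 lay below every control, where 28.6% of all tested genes did. In deficient-labelled replicate 2, 5 members lay above every control, where 21.6% of all tested genes did, and 15 lay below every control, where 33.4% of all tested genes did. With median-of-ratios scaling these counts were 8 above and 11 below, where 26% of all tested genes lay below. All 33 members, under each of the 3 scalings tried, were higher in deficient-labelled replicate 1 than in replicate 2, where 54.1% of all tested genes were higher as deposited. The median difference from the control mean was 1.27 in deficient-labelled replicate 1 (all tested genes -0.029) and -0.36 in replicate 2 (all tested genes -0.14).

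**Figure D1:**
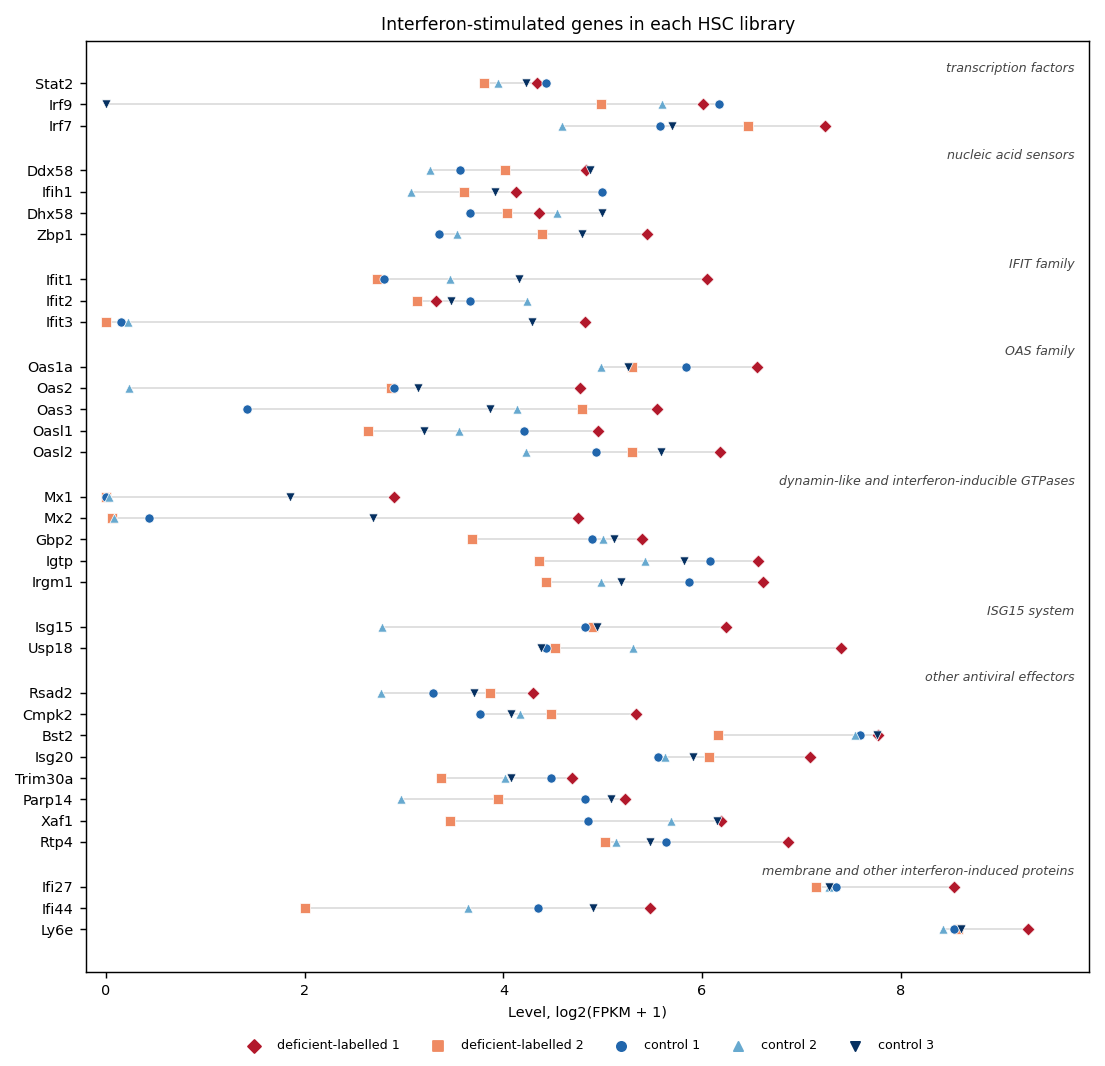
Level of each of the 33 interferon-stimulated genes, as log2(FPKM + 1), in the 2 deficient-labelled libraries (red diamonds and orange squares) and the 3 control libraries (blue symbols), grouped by role; grey lines span the 5 libraries. Deficient-labelled replicate 1 was the highest library for 27 genes and the lowest for none, and deficient-labelled replicate 2 was the highest for none and the lowest for 16.

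As a group comparison, the members gave no call after adjustment. None of the 33 members passed limma over all 10570 tested genes at an adjusted p of 0.05, where 2 genes (0.0189%) passed. At an unadjusted p under 0.05, 3 members were higher in the deficient-labelled libraries, where 3.26% of all tested genes were, and 0 were lower, where 5.18% were. Fitted fold changes were positive for 23 of 33 members, where 44.3% of all tested genes were positive, and the median log2 fold change was 0.54, against -0.10 for all tested genes. Without deficient-labelled replicate 1 that median was -0.36 and 12 of 32 tested members were positive. Without replicate 2 it was 1.27 and 31 of 33 were positive. All 33 members passed the filter of a mean of at least 1 FPKM, Mx1 only with the help of deficient-labelled replicate 1.

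Both deficient-labelled libraries lay above every control for 5 members, where 10.2% of all tested genes did, namely Irf7, Oas3, Rsad2, Cmpk2 and Isg20. For 1 member, Ifit2, both lay below every control, where 15.9% of all tested genes did. For 13 members replicate 1 lay above and replicate 2 below every control, where 6.43% of all tested genes did. The gap between the deficient-labelled replicates was wider than the whole range of the controls for 20 members, where it was for 36.8% of all tested genes. The median gap was 1.32, against a median control range of 1.099, and for all tested genes 0.66 against 1.003.

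Sizes followed the same split. Members at least 1 log2 unit above the control mean numbered 21 in deficient-labelled replicate 1, where 13.7% of all tested genes were that high, and 3 in replicate 2, where 13.5% were. Members at least 1 log2 unit below it numbered 0 in replicate 1, where 18.4% of all tested genes were that low, and 8 in replicate 2, where 17% were. Set against each other, replicate 1 was at least 1 unit above replicate 2 for 22 members, where 16.7% of all tested genes were. It was at least 1 unit below for 0 members, where 17.7% of all tested genes were.

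**Figure D2:**
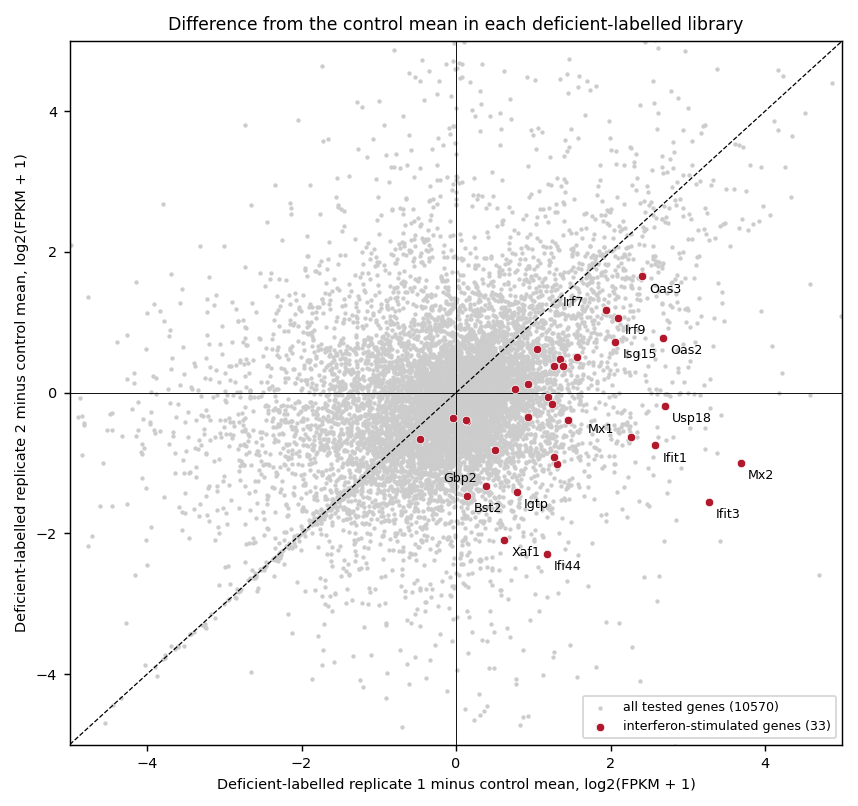
Difference from the control mean, in log2(FPKM + 1), in deficient-labelled replicate 1 (x axis) and replicate 2 (y axis) for the 33 interferon-stimulated genes (red) and all 10570 tested genes (grey). The dashed line marks equal differences, 93 genes lie outside the axes, and all 33 red points lie below the line.

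Among the transcription factors, only Irf7 was higher in both deficient-labelled libraries than in every control. Irf7, which amplifies the interferon response by driving interferon-alpha genes, stood at 149 and 87.2 FPKM in deficient-labelled HSCs, against 46.7, 23.2 and 50.8 FPKM in the controls. The groups did not overlap, with a log2 fold change of 1.56 (SE 0.44) that had the lowest p of any member but did not pass (limma, unadjusted p = 0.00835, adjusted p = 0.439). Stat2, the subunit that activates transcription within ISGF3, was at 19.2 and 12.95 FPKM in deficient-labelled HSCs, against 20.5, 14.4 and 17.8 FPKM in control HSCs. Irf9, its DNA-binding subunit, measured 63.6 and 30.6 FPKM in the deficient-labelled pair, against 71.1, 47.3 and 0 FPKM in the 3 controls. Both genes overlapped between the groups, with log2 fold changes of -0.13 for Stat2 and 1.58 for Irf9 (adjusted p = 0.953 and 0.814). The fold change of Irf9 rests on control replicate 3, where it is listed at 0. It was -0.39 without that library. Annotated loci of Irf7 and Irf9 overlap Phrf1 and Rnf31, and the strand setting of the counting is not given in the sources used here, so reads of the overlapping genes may be mixed.

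The sensors of foreign nucleic acid overlapped between the groups. Ddx58, which encodes the RNA sensor RIG-I, had 27.4 and 15.2 FPKM in deficient-labelled libraries, against 10.8, 8.599 and 28.2 FPKM in control libraries. Ifih1, which encodes the long double-stranded RNA sensor MDA5, stood at 16.4 and 11.2 FPKM in deficient-labelled HSCs, against 30.8, 7.39 and 14.1 FPKM in the controls. Dhx58, which encodes their regulator LGP2, was at 19.6 and 15.4 FPKM in deficient-labelled HSCs, against 11.7, 22.3 and 30.9 FPKM in control HSCs. For these 3 helicases both deficient-labelled libraries fell within the control range, and the controls alone varied by more than the groups did. Zbp1, a sensor of Z-form nucleic acid that can trigger necroptosis, measured 42.6 and 19.9 FPKM in the deficient-labelled pair, against 9.19, 10.6 and 26.6 FPKM in the 3 controls. Only replicate 1 lay above the controls, and the log2 fold change was 1.03 (SE 0.61). The log2 fold changes of Ddx58, Ifih1 and Dhx58 were 0.52, -0.13 and -0.201, and the adjusted p-values of the 4 sensors ran from 0.672 to 0.969 (limma).

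The IFIT genes, whose products bind viral RNA ends and block translation, parted within the family. Ifit1 had 65.4 and 5.602 FPKM in deficient-labelled libraries, against 5.96, 10.02 and 16.8 FPKM in control libraries. Ifit3 stood at 27.4 and 0 FPKM in deficient-labelled HSCs, against 0.109, 0.164 and 18.6 FPKM in the controls. For both, deficient-labelled replicate 1 was the highest library and replicate 2 the lowest, and control replicate 3 was the highest control. Ifit2 was at 9.02 and 7.76 FPKM in deficient-labelled HSCs, against 11.7, 17.9 and 10.1 FPKM in control HSCs. It was the only member for which deficient-labelled replicate 1 lay below every control. Log2 fold changes were 0.92, 0.86 and -0.56 for Ifit1, Ifit3 and Ifit2 (limma, adjusted p = 0.814, 0.918 and 0.797). Ifit3 has a close copy, Ifit3b, with 6.55 and 2.34 FPKM in deficient-labelled libraries and 0, 0.0325 and 3.12 FPKM in the controls, so reads may be shared between them.

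All 5 OAS family genes were above every control in deficient-labelled replicate 1. OAS enzymes make short oligoadenylates that activate RNase L, which then cuts RNA. Oas1a measured 92.6 and 38.3 FPKM in the deficient-labelled pair, against 56.1, 30.7 and 37.1 FPKM in the 3 controls. Oas2 had 26.4 and 6.31 FPKM in deficient-labelled libraries, against 6.48, 0.177 and 7.81 FPKM in control libraries. Oas3 stood at 45.8 and 26.7 FPKM in deficient-labelled HSCs, against 1.67, 16.6 and 13.6 FPKM in the controls. Among these enzymes Oas3 alone was also above every control in replicate 2, and its log2 fold change of 2.03 (SE 0.86) was the largest of any member (limma, unadjusted p = 0.0476, adjusted p = 0.585). It was 1.17 without control replicate 1, the lowest of the controls. The related Oasl1, which in mice restrains translation of Irf7 messages, was at 30.03 and 5.201 FPKM in deficient-labelled HSCs, against 17.4, 10.8 and 8.19 FPKM in control HSCs. Oasl2, which carries ubiquitin-like domains, measured 71.7 and 38.3 FPKM in the deficient-labelled pair, against 29.5, 17.8 and 46.95 FPKM in the 3 controls. Replicate 2 was thus the lowest library for Oasl1 and inside the control range for Oasl2. Log2 fold changes were 0.56, 1.73, 0.14 and 0.83 for Oas1a, Oas2, Oasl1 and Oasl2, with adjusted p-values of 0.681 to 0.971 (limma).

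The 5 GTPases were all above every control in deficient-labelled replicate 1, and 4 of them were below every control in replicate 2. Mx2 had 25.9 and 0.0452 FPKM in deficient-labelled libraries, against 0.353, 0.05303 and 5.44 FPKM in control libraries. Mx1 stood at 6.45 and 0 FPKM in deficient-labelled HSCs, against 0, 0.0236 and 2.62 FPKM in the controls. Both encode dynamin-like antiviral GTPases, and C57BL/6 mice are known to carry alleles of Mx1 that make no working protein, so these values speak of transcript only. The 2 genes were at or near 0 in deficient-labelled replicate 2 and in control replicates 1 and 2, and were highest in deficient-labelled replicate 1, followed by control replicate 3. Gbp2, a guanylate-binding protein that acts on pathogen-containing vacuoles, was at 41.04 and 11.8 FPKM in deficient-labelled HSCs, against 28.7, 31.1 and 33.7 FPKM in control HSCs. Igtp, an immunity-related GTPase also called Irgm3, measured 93.3 and 19.5 FPKM in the deficient-labelled pair, against 66.6, 42.05 and 55.2 FPKM in the 3 controls. Irgm1, a relative that mouse HSCs need to withstand interferon signalling, had 96.7 and 20.6 FPKM in deficient-labelled libraries, against 57.2, 30.7 and 35.2 FPKM in control libraries. For these 3 the controls sat between the deficient-labelled libraries, with replicate 1 above all of them and replicate 2 below all of them. Group log2 fold changes were accordingly small, at -0.47, -0.31 and 0.18 for Gbp2, Igtp and Irgm1, and 0.82 and 1.34 for Mx1 and Mx2 (limma, adjusted p = 0.822 to 0.953). The annotated locus of Igtp overlaps that of Irgm2, so reads may be mixed between them.

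Of the ISG15 system, Usp18 stood out in 1 library. Usp18, which strips ISG15 from proteins and damps the type I interferon receptor, stood at 168 and 21.9 FPKM in deficient-labelled HSCs, against 20.6, 38.6 and 19.7 FPKM in the controls. Isg15, the ubiquitin-like modifier itself, was at 74.8 and 28.9 FPKM in deficient-labelled HSCs, against 27.3, 5.85 and 29.9 FPKM in control HSCs. In both cases replicate 2 fell inside the control range, and replicate 1 was 2.698 and 2.06 log2 units above the control mean for Usp18 and Isg15. Group log2 fold changes were 1.26 (SE 0.79) and 1.39 (SE 0.75), and neither passed (limma, adjusted p = 0.692 and 0.657).

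All 8 other antiviral effectors were above every control in deficient-labelled replicate 1, and 3 of them were so in both libraries. Isg20, an exonuclease that degrades viral RNA, measured 135 and 66.2 FPKM in the deficient-labelled pair, against 46.2, 48.5 and 59.1 FPKM in the 3 controls. Cmpk2, a mitochondrial nucleotide kinase, had 39.5 and 21.4 FPKM in deficient-labelled libraries, against 12.6, 16.9 and 15.8 FPKM in control libraries. Rsad2, which encodes viperin and lies next to Cmpk2 in the genome, stood at 18.7 and 13.6 FPKM in deficient-labelled HSCs, against 8.79, 5.82 and 12.005 FPKM in the controls. For these 3 the groups did not overlap, with log2 fold changes of 0.88, 0.91 and 0.83 for Isg20, Cmpk2 and Rsad2 that did not pass (limma, adjusted p = 0.587, 0.637 and 0.713).

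The remaining effectors were high in replicate 1 alone. Rtp4, a receptor chaperone that restrains the interferon response in mice, was at 115 and 31.5 FPKM in deficient-labelled HSCs, against 48.8, 34.1 and 43.5 FPKM in control HSCs. Xaf1, a pro-apoptotic partner of the caspase inhibitor XIAP, measured 71.8 and 10.05 FPKM in the deficient-labelled pair, against 27.9, 50.4 and 69.9 FPKM in the 3 controls. Bst2, which encodes tetherin and holds budding virus on the cell surface, had 217 and 70.5 FPKM in deficient-labelled libraries, against 192, 185 and 216 FPKM in control libraries. The excess of replicate 1 over the highest control was slight for Xaf1 and Bst2, while replicate 2 lay far below the lowest control. Trim30a, a tripartite-motif protein that dampens Toll-like receptor signalling, stood at 24.9 and 9.37 FPKM in deficient-labelled HSCs, against 21.2, 15.2 and 15.9 FPKM in the controls. Parp14, an ADP-ribosyltransferase, was at 36.5 and 14.4 FPKM in deficient-labelled HSCs, against 27.4, 6.82 and 32.9 FPKM in control HSCs. Replicate 2 lay below every control for Trim30a but not for Parp14. Log2 fold changes were 0.53, -0.74, -0.67, -0.16 and 0.29 for Rtp4, Xaf1, Bst2, Trim30a and Parp14, with adjusted p-values of 0.715 to 0.952 (limma).

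The last 3 members, with the abundant Ly6e and Ifi27 among them, were again highest in deficient-labelled replicate 1. Ly6e, a surface protein related to Sca-1, measured 623 and 380.05 FPKM in the deficient-labelled pair, against 370.4, 343 and 389.8 FPKM in the 3 controls. Ifi27, a small hydrophobic interferon-induced protein, had 372 and 140.3 FPKM in deficient-labelled libraries, against 162, 155 and 154 FPKM in control libraries. Ifi44, a cytoplasmic interferon-induced protein, stood at 43.5 and 3.01 FPKM in deficient-labelled HSCs, against 19.4, 11.5 and 28.96 FPKM in the controls. The controls were close together for Ly6e and Ifi27, whose SD was 23.4 and 4.39 FPKM (n = 3), and replicate 1 exceeded them well beyond that spread. Replicate 2 was level with the controls for Ly6e, just below them for Ifi27 and well below them for Ifi44. Log2 fold changes were 0.41, 0.54 and -0.56 for Ly6e, Ifi27 and Ifi44, and none passed (limma, adjusted p = 0.719, 0.732 and 0.906).

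The baseline in control HSCs was uneven. By control mean, which FPKM makes comparable between genes of different length, Ly6e was highest at 368 ± 23.4 FPKM, followed by Bst2 at 198 ± 16.1 and Ifi27 at 157 ± 4.39 FPKM (SD, n = 3). Then came Igtp at 54.6 ± 12.3, Isg20 at 51.3 ± 6.87 and Xaf1 at 49.4 ± 21.02 FPKM (SD, n = 3), neighbours that did not differ beyond their spread. At the low end were Oas2 at 4.82 ± 4.08 and Mx2 at 1.95 ± 3.03 FPKM (SD, n = 3). Mx1 was lower still. The controls differed among themselves, and the median level of the members on the log2(FPKM + 1) scale was 4.47, 4.16 and 4.87 in control replicates 1, 2 and 3. In deficient-labelled replicates 1 and 2 it was 5.48 and 4.04. The median SD over the controls was 0.60 for the members and 0.53 for all tested genes.

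**Figure D3:**
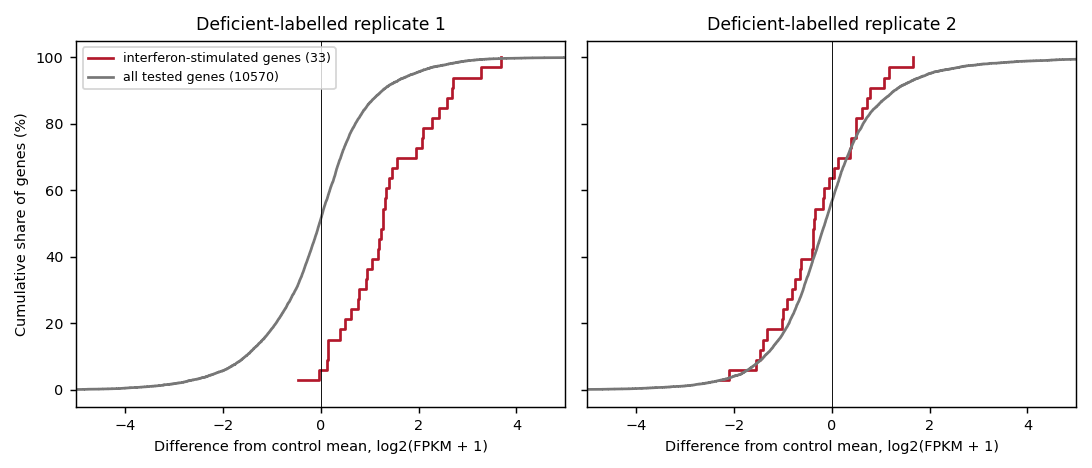
Cumulative share of genes, in percent, by difference from the control mean in log2(FPKM + 1), for the 33 interferon-stimulated genes (red) and all 10570 tested genes (grey), in deficient-labelled replicate 1 (left) and replicate 2 (right). The red curve is right of the grey one in replicate 1 (medians 1.27 and -0.029), and left of it at its median in replicate 2 (medians -0.36 and -0.14).

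A list of further interferon-stimulated genes, outside the 33, was also mostly above the controls in replicate 1. Of 68 such symbols, Ly6a among them, 58 were tested. In deficient-labelled replicate 1, 35 (60.3%) lay above every control and 9 (15.5%) below, where 26.5% and 28.6% of all tested genes did. In replicate 2, 18 (31%) lay above and 23 (39.7%) below, where 21.6% and 33.4% of all tested genes did. None passed over all tested genes (limma). At an unadjusted p under 0.05, 5 were higher and 2 lower, where 3.26% and 5.18% of all tested genes were. The median difference from the control mean was 0.57 in replicate 1 and 0.019 in replicate 2, and 42 of 58 (72.4%) were higher in replicate 1 than in replicate 2, where 54.1% of all tested genes were. Ifitm3, which blocks virus entry, was at 2617 and 1150.1 FPKM in deficient-labelled HSCs, against 1221, 1144 and 1646 FPKM in control HSCs. Lgals9, a galectin, measured 360.2 and 304 FPKM in the deficient-labelled pair, against 267, 375 and 252 FPKM in the 3 controls. These are the most abundant of the list, and their groups overlapped (adjusted p = 0.804 and 0.896). The 2 genes with the largest fold changes differed in sign, and both were higher in replicate 2 than in replicate 1. Ly6c2, also a monocyte marker, had 87.3 and 669.7 FPKM in deficient-labelled libraries, against 0.888, 6.59 and 34.2 FPKM in control libraries. Nlrc5, a transactivator of MHC class I genes, stood at 0 and 7.04 FPKM in deficient-labelled HSCs, against 31.04, 30.1 and 13.7 FPKM in the controls. Neither passed (adjusted p = 0.433 and 0.439).

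Some genes of that list, chosen after their values were seen, were above every control in deficient-labelled replicate 1. Oas1b, an OAS relative, was at 11.2 and 1.095 FPKM in deficient-labelled HSCs, against 0.0799, 0.108 and 6.86 FPKM in control HSCs. Apol9b, an apolipoprotein L family gene, measured 21.8 and 2.32 FPKM in the deficient-labelled pair, against 0.0506, 0.0909 and 1.82 FPKM in the 3 controls. Herc6, the mouse ligase that attaches ISG15, had 64.01 and 11.01 FPKM in deficient-labelled libraries, against 9.67, 15.2 and 7.93 FPKM in control libraries. Oas1b and Apol9b were near 0 in control replicates 1 and 2 and higher in control replicate 3, but not near 0 in deficient-labelled replicate 2. Herc6 was present in every library.

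Receptors and transducers of the pathway were mostly low in deficient-labelled replicate 1. Of 15 such genes 14 were tested, and in replicate 1 there were 9 (64.3%) below every control and 2 (14.3%) above, where 28.6% and 26.5% of all tested genes were. In replicate 2 there were 5 (35.7%) below and 3 (21.4%) above, where 33.4% and 21.6% of all tested genes were. The median difference from the control mean was -0.85 in replicate 1 and -0.037 in replicate 2. None passed over all tested genes (limma). At an unadjusted p under 0.05, 0 were higher and 2 lower, where 3.26% and 5.18% of all tested genes were. Irf3, a factor activated by viral sensing, stood at 112 and 61.4 FPKM in deficient-labelled HSCs, against 64.6, 109 and 113 FPKM in the controls. Ifngr1, the ligand-binding chain of the interferon-gamma receptor, was at 46.8 and 101 FPKM in deficient-labelled HSCs, against 106, 76.5 and 68.5 FPKM in control HSCs. Its partner chain Ifngr2 measured 0.0313 and 23.9 FPKM in the deficient-labelled pair, against 8.34, 22.8 and 9.92 FPKM in the 3 controls. Both receptor chains were thus lowest in replicate 1. Irf8, a monocyte and dendritic cell factor, had 0.0441 and 19.4 FPKM in deficient-labelled libraries, against 0.0738, 0.08897 and 5.37 FPKM in control libraries. Adjusted p-values of these 4 genes were 0.772 to 0.937 (limma).

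The type I receptor chains, chosen after their values were seen, were low in both libraries. Ifnar1 stood at 10.9 and 11.2 FPKM in deficient-labelled HSCs, against 31.9, 23.9 and 21.6 FPKM in the controls. Ifnar2 was at 25.7 and 27.5 FPKM in deficient-labelled HSCs, against 50.9, 58.1 and 58.7 FPKM in control HSCs. For either gene both deficient-labelled libraries lay below every control, where 15.9% of all tested genes did. The log2 fold changes of -1.13 (SE 0.43) and -1.04 (SE 0.32) did not pass (limma, adjusted p = 0.546 and 0.439).

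Sensor adaptors and inhibitors of the pathway gave no call. Of 13 adaptor and kinase symbols 8 were tested, with 4 fold changes positive and 4 negative, where 44.3% of all tested genes were positive. None passed the threshold (limma). At an unadjusted p under 0.05, 0 were higher and 1 lower, where 3.26% and 5.18% of all tested genes were. Myd88, the adaptor of Toll-like receptors, measured 66.6 and 99.6 FPKM in the deficient-labelled pair, against 61.9, 55.3 and 51.8 FPKM in the 3 controls. Tmem173, which encodes STING, had 36.2 and 25.5 FPKM in deficient-labelled libraries, against 31.8, 21.2 and 40.5 FPKM in control libraries. STING overlapped between the groups. Ikbke, a kinase that phosphorylates Irf3 and Irf7, stood at 2.78 and 2.53 FPKM in deficient-labelled HSCs, against 17.3, 14.5 and 13.5 FPKM in the controls. Ticam1, the adaptor TRIF, was at 18.9 and 1.34 FPKM in deficient-labelled HSCs, against 0.0247, 0.134 and 7.65 FPKM in control HSCs. For Ikbke both deficient-labelled libraries lay below every control, where 15.9% of all tested genes did. Its log2 fold change of -2.13 did not pass (limma, adjusted p = 0.433). Adjusted p-values of Myd88, Tmem173 and Ticam1 were 0.673 to 0.996. Of 10 inhibitor symbols 9 were tested, with 5 positive and 4 negative fold changes, where 44.3% of all tested genes were positive. None passed the threshold (limma). At an unadjusted p under 0.05 there were 0 in either direction, where 3.26% of all tested genes were higher and 5.18% lower. Among the inhibitors the phosphatase Ptpn6 (SHP-1) measured 168 and 179.7 FPKM in the deficient-labelled pair, against 145, 163 and 171 FPKM in the 3 controls. Ptpn2, a phosphatase of the pathway, had 27.4 and 21.6 FPKM in deficient-labelled libraries, against 30.7, 59.8 and 39.9 FPKM in control libraries. Ptpn1, a phosphatase of the kinases JAK2 and TYK2, stood at 20.8 and 37.1 FPKM in deficient-labelled HSCs, against 21.8, 21.4 and 19.9 FPKM in the controls. The last 2, with the largest fold changes of the list, had fold changes of opposite sign that did not pass (adjusted p = 0.653 and 0.817). Of 10 interferon genes only Ifnk is a row, with 2.28 and 0 FPKM in deficient-labelled libraries and 1.43, 0 and 0.413 FPKM in the controls, and it was not tested. The other interferon genes were not analysed here.

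**Figure D4:**
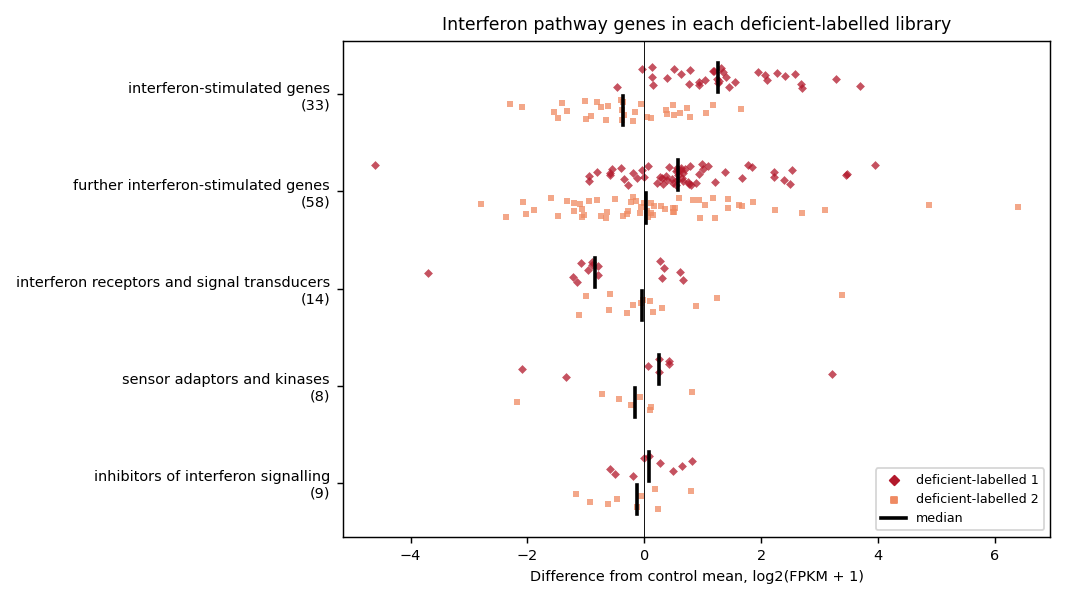
Difference from the control mean, in log2(FPKM + 1), of each tested gene of the 33 members and of 4 other interferon pathway lists, in deficient-labelled replicate 1 (red diamonds) and replicate 2 (orange squares); black bars are medians and numbers in brackets are genes. The median of the members lies at 1.27 in replicate 1 and -0.36 in replicate 2, and that of the receptors and transducers at -0.85 and -0.037.

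Markers of other cell types also separated the libraries. Neutrophil and monocyte markers (13 of 14 symbols in the table) summed to 10798 and 66703 FPKM in the deficient-labelled libraries, against 283 to 2672 FPKM in the controls. Their share of the library total was 1.58% and 11.1% in the deficient-labelled libraries, against at most 0.416% in the controls. Erythroid markers (8 of 11) summed to 107 and 572 FPKM in the deficient-labelled libraries, against 17.9 to 38.5 FPKM in the controls. Both lists were thus highest in replicate 2, the library in which more members lay below every control than above. The same held there for all tested genes (33.4% below and 21.6% above). Megakaryocyte and platelet markers (12 of 13) summed to 8948 and 4183 FPKM in the deficient-labelled libraries, against 589 to 1365 FPKM in the controls. B, T and NK cell markers (7 of 14) summed to 398 and 316 FPKM in the deficient-labelled libraries, against 85.2 to 154 FPKM in the controls. Nkg7, a granule gene of NK and cytotoxic T cells, gave 345 FPKM of the sum in replicate 1. In replicate 1, 3 of the 7 genes lay above every control and 1 below, where 26.5% and 28.6% of all tested genes did. Those above were Nkg7, Gzmb and Klrb1c. Gzmb had 33.1 and 1.3 FPKM in deficient-labelled libraries, against 0, 0.145 and 0.11 FPKM in control libraries. Klrb1c had 3.16 and 2.21 FPKM, against 0, 0.0727 and 0 FPKM. The B cell gene Cd79a and the T cell gene Cd4 were listed at 0 in replicate 1. Without Nkg7 that list summed to 52.7 and 123 FPKM in the deficient-labelled libraries, against 49.01 to 64.6 FPKM in the controls. Of the full list, 6 of the 7 genes, Nkg7 among them, lay above every control in replicate 2, where 21.6% of all tested genes did. Of the megakaryocyte and platelet sum, Pf4, a platelet chemokine, gave 7503 and 3023 FPKM in the deficient-labelled libraries. Without it the sums were 1446 and 1160 FPKM in the deficient-labelled libraries, against 334 to 526 FPKM in the controls, and 5 of 11 genes were higher in replicate 1 than in replicate 2. Dendritic cell and macrophage markers (9 of 17, Bst2 among them) summed to 343 and 275 FPKM in the deficient-labelled libraries, against 326 to 437 FPKM in the controls. Without Bst2, which is one of the 33, they summed to 125 and 205 FPKM in the deficient-labelled libraries, against 140.3 to 245 FPKM in the controls, so that replicate 1 was lowest. Clec9a, a marker of conventional dendritic cells, was listed at 0 in both deficient-labelled libraries and in control replicates 2 and 3. Cd68, a macrophage marker, had 0.112 and 43.02 FPKM in deficient-labelled libraries, against 13.5, 0 and 11.6 FPKM in control libraries. Adgre1, which encodes the macrophage marker F4/80, had 8.76 and 7.798 FPKM in deficient-labelled libraries, against 0, 0.0579 and 1.14 FPKM in control libraries. The members themselves summed to 2911 and 1184 FPKM in the deficient-labelled libraries, against 1258 to 1547 FPKM in the controls. Their share of the library total was 0.426% and 0.198% in the deficient-labelled libraries, against 0.196% to 0.238% in the controls, so replicate 2 fell within the control range by share. The part of these marker genes in the interferon-stimulated values was not tested. In such bulk libraries fewer cells of a type and less RNA per cell cannot be told apart.

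**Figure D5:**
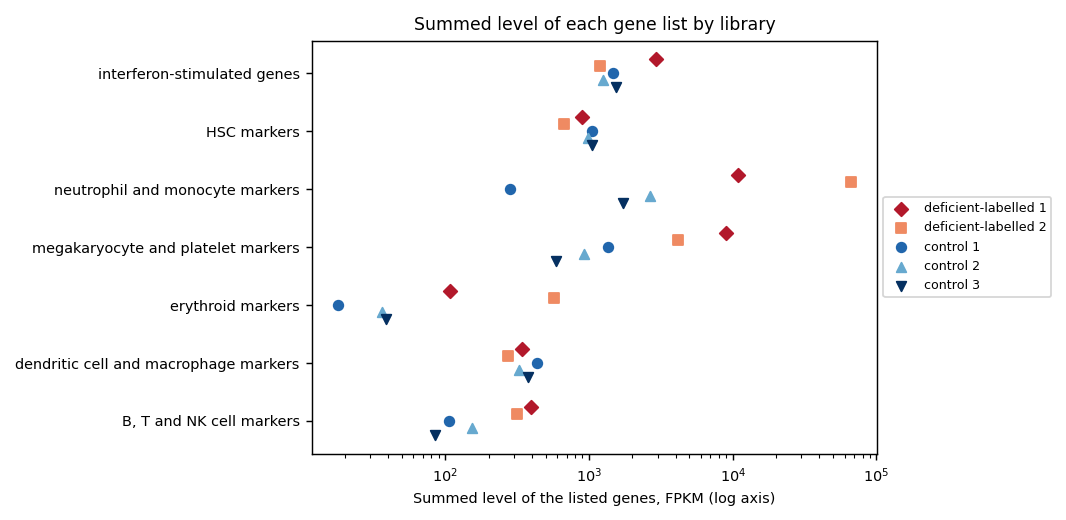
Summed level of each gene list, in FPKM on a log axis, in the 2 deficient-labelled libraries (red diamonds and orange squares) and the 3 controls (blue symbols). The interferon-stimulated genes are highest in deficient-labelled replicate 1 (2911 FPKM), whereas neutrophil and monocyte markers are highest in replicate 2 (66703 FPKM).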

How the data were processed

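RNA-seq libraries of sorted mouse HSCs, 2 labelled Tle1/3/4-deficient and 3 control, were grouped and numbered by their titles. The authors deposited FPKM per gene symbol. Per the submitters' processing notes the build was mm9, and TopHat and edgeR are named without versions. How reads were assigned, FPKM computed and genes filtered is not stated there. Because FPKM is relative to the library, abundant transcripts of one kind depress the rest.

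The test was limma 3.58.1 (R 4.3.3; lmFit, then eBayes with trend; group only; two-sided) on log2(FPKM + 1) of the 10570 of 11643 genes that averaged 1 FPKM or more, adjusted by Benjamini-Hochberg over all tested genes, threshold 0.05. The fit was checked on data made with known changes. Members were all rows of the 35 symbols, each given by library, with fold change and adjusted p singly or as a range by role. Of other lists, genes past the threshold, otherwise the 2 most abundant and the 2 with the largest fold change, are named. The members and lists were chosen with earlier results of these data known. Depth in total reads is unknown, so no counting interval is given. Low values (under 0.3 FPKM) gave relative depth as their commonest ratio within 0.5%.

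Alternatives covered pseudocount, filter, scaling, eBayes settings, array weights, replicate block, threshold and leaving out each library. Marker sums without a list's most abundant gene were added after seeing the data. Promoters were RefSeq windows on GRCm38.p6. Gene overlaps came from GENCODE vM21 by symbol, which matched all 33 members. Some genes of the lists are not reported here by name. Python 3.11.15, pandas 2.3.3 and matplotlib 3.10.9 were used.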

Additional observations from a re-analysis of the deposited data

How the results depend on the processing

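No member passed under any of the 16 alternatives run, and the lowest adjusted p of a member among them was 0.23 (Bst2 without deficient-labelled replicate 1, a run in which the lone deficient-labelled library is assumed to vary like the controls). The number of genes past the threshold over the whole table, 2 as reported, was 0 with a pseudocount of 0.1, without a filter and with array weights, 1 without trend, 4 with a pseudocount of 5 or median-of-ratios scaling, and 5 with robust eBayes or a threshold of 0.1. Leaving out 1 library gave 0 to 5. With the replicate number as a block it was 22, on few residual degrees of freedom. The correlation of deviations from the group mean was 0.035 between the libraries numbered 1 and 0.0069 between those numbered 2. With 2 deficient-labelled libraries these deviations mirror each other, so the check cannot show whether same-numbered libraries were paired.

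The median log2 fold change of the members kept its sign under every alternative except leaving out deficient-labelled replicate 1, and ran from -0.36 to 1.27 when 1 library was left out. The count of members with a positive fold change ran from 12 to 31 in those runs. Members above every control in deficient-labelled replicate 2 numbered 8 with median-of-ratios scaling and 7 with quantile normalization. As deposited, 21.6% of all tested genes lay above every control there. Members below numbered 11 and 13 with these scalings, where 26% and 30.2% of all tested genes lay below. Those above numbered 5 to 10 when 1 library was left out, the highest without control replicate 3. In deficient-labelled replicate 1 those above every control numbered 26 to 30 under all alternatives with 32 or 33 members, and 23 of 28 among members at 0.5 FPKM or more in every library, an alternative chosen after seeing the data. Median-of-ratios scaling moved the median of all tested genes from -0.10 to 0.014. Fold changes of single members turned sign for Ifit3 with array weights (-0.00033), and for Dhx58 (0.096), Oasl1 (-0.086) and Irf9 (-0.39) with the replicate block. Control replicate 3 is the only library with its number, so the block takes it out of the group difference. The block fold changes are therefore the same as those without control replicate 3, and are not a separate alternative. When 1 library was left out, fold changes turned sign for 20 of 33 members, running from -1.002 to 3.68 for Mx2, -2.096 to 0.62 for Xaf1, -0.39 to 1.45 for Rtp4, -1.47 to 0.14 for Bst2, -2.296 to 1.18 for Ifi44, -0.91 to 1.27 for Irgm1, -0.16 to 1.24 for Ifi27, -0.82 to 0.503 for Trim30a, -0.57 to 0.096 for Dhx58, -1.55 to 3.27 for Ifit3, -0.37 to 0.94 for Parp14, -1.02 to 1.302 for Oasl1, -0.75 to 2.58 for Ifit1, -0.39 to 2.701 for Irf9, -0.062 to 1.19 for Oas1a, -0.59 to 0.37 for Ifih1, -0.399 to 0.14 for Stat2, -1.32 to 0.39 for Gbp2, -0.19 to 2.698 for Usp18 and -1.41 to 0.79 for Igtp. For 11 they kept their sign and moved by over 1.5 times, running from 0.049 to 0.76 for Ly6e, 1.17 to 2.53 for Oas3, 0.69 to 2.06 for Isg15, 0.499 to 1.56 for Zbp1, 0.38 to 1.27 for Oasl2, 0.12 to 1.01 for Ddx58, 0.48 to 1.34 for Cmpk2, 0.37 to 1.39 for Isg20, 0.78 to 2.68 for Oas2, -0.72 to -0.34 for Ifit2 and 0.504 to 2.27 for Mx1. Mx1 was not tested without deficient-labelled replicate 1, where its mean was 0.66 FPKM, under the filter. In replicate 2 it lay at -0.63 from the control mean, so its kept sign covers only runs that held replicate 1. The cause of the moves when 1 library was left out was not tested.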
